A study of Macaca mulatta with 24 samples.

Results

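Chemokines, interleukins and their receptors were followed in the endometrium of rhesus monkeys (Macaca mulatta) over the first days after ovulation. The genes were taken by name: every gene symbol in the scanner files that begins CCL, CXCL, CX3CL, XCL, CCR, CXCR or CX3CR, or IL followed by a digit, apart from the IL6, IL11, IL15 and IL7R group (IL6, IL6R, IL6ST, IL11, IL11RA, IL15 and IL7R). This gave 65 genes of the 19273 features on the array, each read by its probe with the highest mean level. They comprise 15 chemokine ligands, 13 chemokine receptors, 15 interleukins, 2 interleukin antagonists and 20 interleukin receptor chains. The measurement was total endometrial RNA on 24 Agilent 1-colour arrays, 4 in each of 6 groups. Conception cycles, in which the monkeys were mated and conception was proven, gave samples at day 2, day 4 or day 6 counted from ovulation. Non-mated cycles with normal ovulation, in monkeys known to be fertile, gave samples at the same 3 times. For 8 non-mated samples the title says day 2 against day 4 or 6 in every other field, and the other fields were followed. The source names of the conception samples count the day from fertilization, and their descriptions from ovulation. The labels do not state that each array is a different animal. The p-values are therefore about the spread among these samples, some of which could be technical. The comparison the study set up is conception against non-mated endometrium, day by day, before implantation.

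Chemokines are small secreted proteins that direct the movement of leukocytes through G protein-coupled receptors, and interleukins are secreted signals read by receptor chains that work in pairs. IL4 and IL13 share the chain IL4R, which partners IL2RG or IL13RA1, whereas IL13RA2 binds IL13 as a decoy. The IL17 receptors RA, RC and RE combine in pairs, and IL20RA joins IL20RB to read IL19, IL20 and IL24, mainly on epithelium. In the uterus these families are known for recruiting natural killer cells, macrophages and other leukocytes to the endometrium after ovulation.

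The probes are 60-base oligonucleotides. The last 30 bases of those on which the results turn are shown, 5′ to 3′ as the deposited files give them, because a named gene is only as good as the probe that reads it. Capitals mark the letters AATAAA, the usual polyadenylation signal near the end of a transcript.
IL20RA: catgcacacaggtctcttaacgatggtggt
IL4R: aagatagtttcatcacctgttgtctgtgtt
CXCR4: agtcttgtattaagttgttAATAAAagtac
CXCL13: aagatccccagacttcatagaatactcagg
IL5RA-named, chromosome X: tatgagtctcAATAAActgaatttttcttg
IL5RA-named, chromosome 2: cattttgcaccagcttggagtgaatcatga
On the rheMac2 build these bases lie at chr4:126820608-126820637 on the plus strand for IL20RA, chr20:25815161-25815190 on the plus strand for IL4R and chr13:116021235-116021264 on the plus strand for CXCR4. They lie at chr5:51960464-51960493 on the minus strand for CXCL13, and at chrX:113507404-113507433 on the minus strand and chr2:57939245-57939274 on the plus strand for the IL5RA-named pair. The files give no exon, intron or UTR annotation for them. AATAAA, searched on both strands of the whole probe, occurred as printed in 12.8% of all 20217 probes and on the other strand in 4.67%. Among the 65 chosen probes it occurred as printed in 10 and on the other strand in 4.

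The IL5RA-named pair does not read the same gene. The file describes the chromosome X probe as similar to the precursor of IL13RA2, the decoy receptor for IL13, and the chromosome 2 probe as similar to the IL5 receptor alpha chain. The chromosome X probe was well above background on 22 of 24 arrays and the chromosome 2 probe on 0, so the rule chose the first. It is called the IL5RA-named probe below, and no level for the IL5 receptor alpha chain is given. CXCR4 was printed under 2 probe names with the same sequence, whose levels differed by a median of 0.19 on the log2 scale over 24 arrays. Probes of 1 gene could differ far more: the chosen CCL3 probe was well above background on 18 arrays and the other on 0, and for CCR9, whose probes overlap, on 15 and 2. A probe not well above background therefore bounds the signal of that probe, not the presence of the gene's RNA.

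Of the 65 genes, 24 were measured well enough to be tested, having a probe that the scanner software called well above background on at least 3 of the 4 arrays of a group. That is 36.9%, against 63.5% of all features. The share was 6 of 15 for chemokine ligands, 6 of 13 for chemokine receptors and 9 of 20 for interleukin receptor chains. For the interleukins themselves it was 2 of 15, namely IL5, the eosinophil growth factor, and IL1F9 (IL36G), an epithelial alarm cytokine. Some genes met the filter in 1 group only, IL1F9 and IL2RG in conception day 2 and CCL21, CCR7 and IL8RB in non-mated day 6, so their differences from that group are descriptions. Of the 2 antagonists IL1RN, which blocks IL1 signalling, was tested and IL1F5 (IL36RN) was not.

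**Figure D1:**
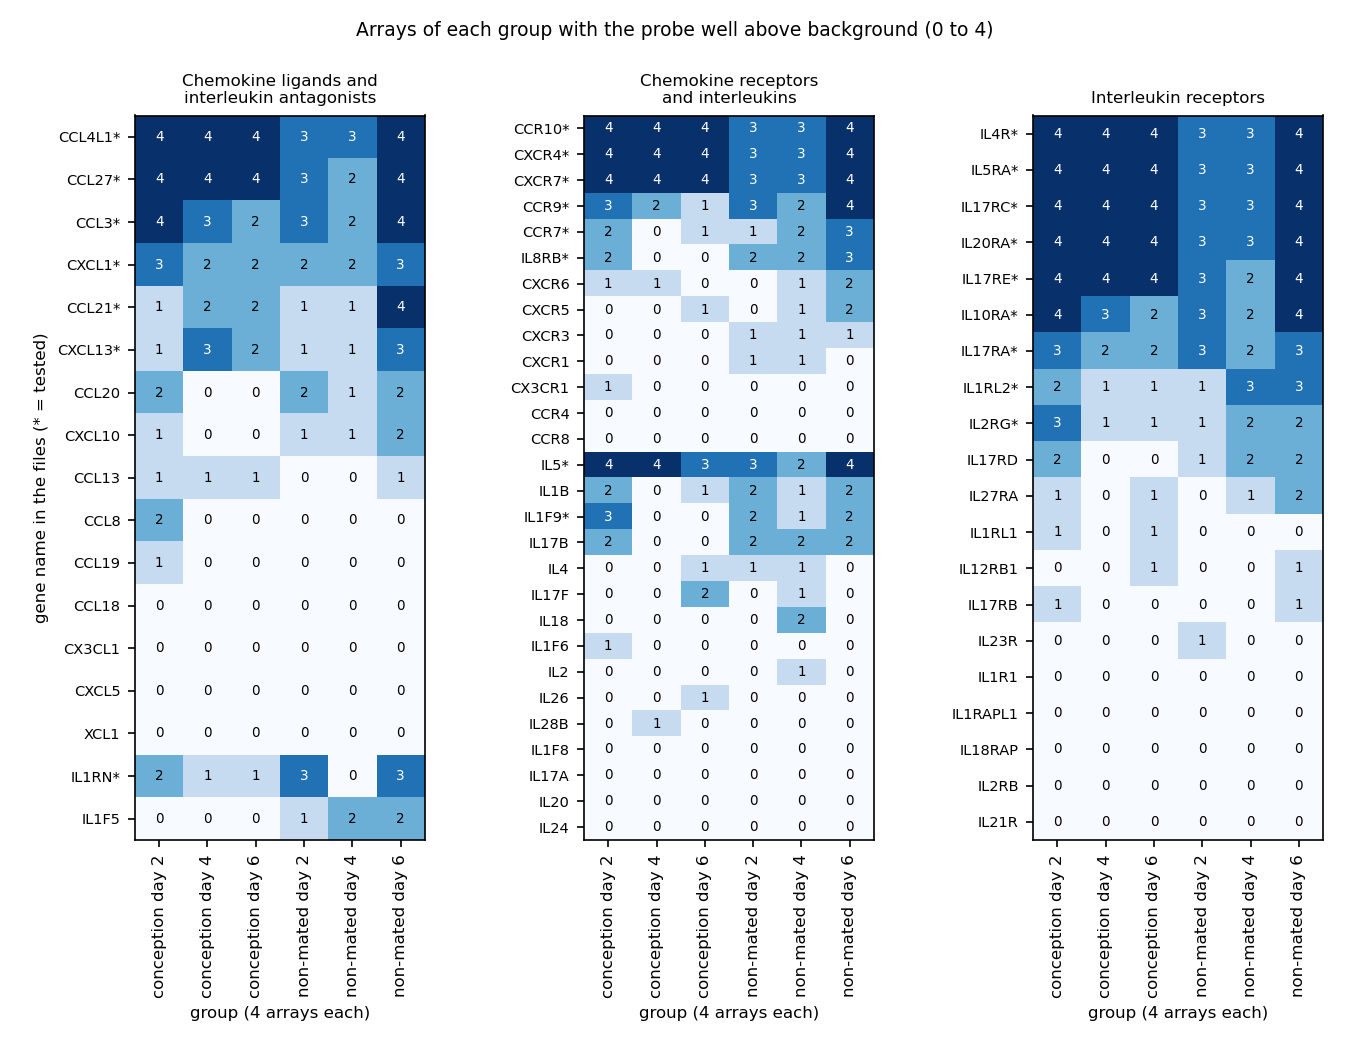
Number of arrays, of 4 in each group (horizontal axis), on which each of the 65 genes (vertical axis, ordered by role) was called well above background, with tested genes starred. The darkest rows hold the 10 genes detected on all 21 arrays of normal signal, and 15 genes show 0 in every group.

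The 10 genes that were well above background on all 21 arrays of normal signal were 2 chemokines, 3 chemokine receptors and 5 receptor chains of interleukins. The chemokines were CCL27, a skin attractant of T cells, and CCL4L1, a copy of the macrophage inflammatory protein CCL4. CCR10, the receptor of CCL27, was among the receptors, beside CXCR4 and CXCR7 (ACKR3), which share the ligand CXCL12. The receptor chains were IL4R, IL17RC, IL17RE, IL20RA and the IL5RA-named probe on chromosome X. CCL4L1 has near-identical copies in primates, so its signal cannot be assigned to 1 copy.

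At the other end, 15 genes were well above background on 0 of 24 arrays. These were CCL18, CX3CL1, CXCL5 and XCL1 among the ligands and CCR4 and CCR8 among the receptors. They also included IL17A, IL1F8 (IL36B), IL20 and IL24 among the interleukins and IL1R1, IL1RAPL1, IL18RAP, IL21R and IL2RB among the receptor chains. IL20 and IL24 are ligands of IL20RA, and IL1R1 is the signalling receptor of IL1. The remaining 26 untested genes were well above background on 1 to 8 arrays. IL1B, the inflammatory cytokine, and IL17B reached 8 arrays and CCL20, which attracts T cells and dendritic cells, 7. CXCL10, an interferon-induced attractant, reached 5, the macrophage attractant CCL8 and IL18 reached 2, and CCL19 and CX3CR1 reached 1. For IL18 both were outside the 21 arrays of normal signal.

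Detection differed between arrays as well as genes. On 3 non-mated arrays the signal was weak: day 2 replicate 3 had 4.33% of all probes well above background, day 4 replicate 1 had 37.9% and day 4 replicate 2 had 21.8%, against 53.3% to 71.5% on the other 21. They showed 0, 9 and 6 of the 65 genes, against 13 to 36 on the others. On a weak array a probe near background is assigned a nearly fixed value: 18 of the 24 tested genes stood at -0.28 on day 2 replicate 3, 12 at -3.68 on day 4 replicate 1 and 14 at -1.73 on day 4 replicate 2. Levels are in log2 units relative to the array's 75th percentile. CXCL13, for example, stood at 0.06 on day 2 replicate 3 against -5.17 to -4.72 on the other arrays of its group, and IL4R at -1.73 on day 4 replicate 2 against -0.16 to 0.63, so each comparison is given with and without the 3 arrays. Of the 6 arrays scanned over a single range, 3 were conception day 2 and 1 each conception day 4, conception day 6 and non-mated day 2. Markers of the labelled tissue were present: all 5 epithelial and all 8 stromal markers on the array were well above background on the 21 arrays.

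**Figure D2:**
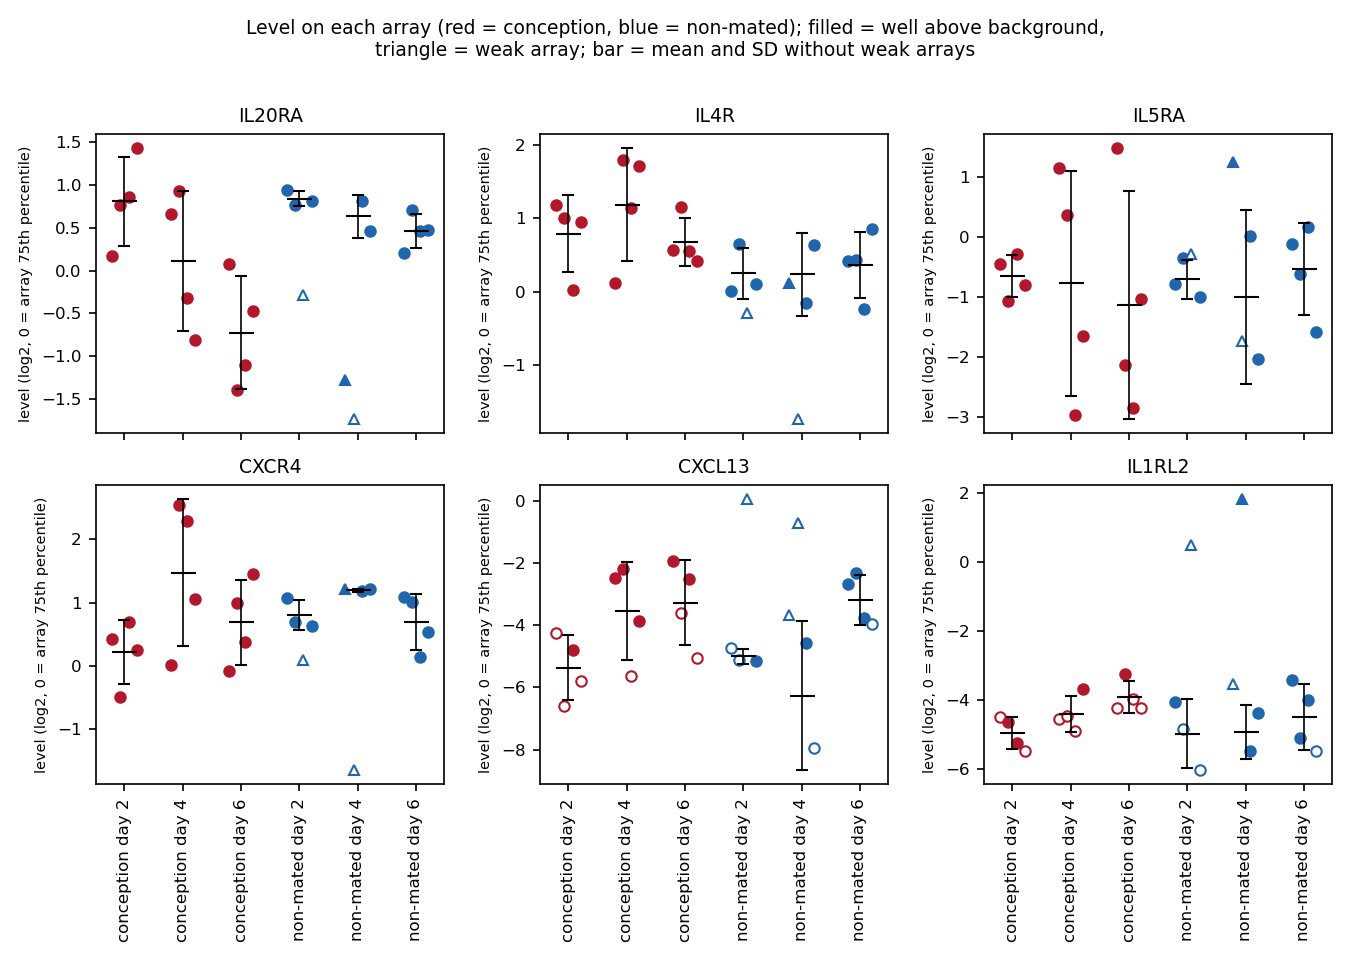
Level of 6 genes on each array (vertical axis, log2 relative to the array's 75th percentile) by group (horizontal axis), with filled symbols well above background, triangles for the 3 weak arrays, and the mean and SD of the other arrays. IL20RA in conception day 6 lies between -1.40 and 0.07, below all 4 arrays of conception day 2 and of non-mated day 6.

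No gene of the families passed the threshold of the limma fit, a Benjamini-Hochberg adjusted p under 0.05 over all 12240 features, in any of the 9 comparisons. The same fit called 0 to 2 features of the whole array in each. What follows therefore gives differences as values. Their SEs ran from 0.36 for the steadiest gene to 1.24 for the most variable in a comparison of 2 groups, with a median of 0.79. The within-group SD had a median of 1.20 over the 24 genes and 0.76 over all features. Without the 3 weak arrays these medians were 0.69 and 0.52.

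IL20RA was the one gene of the 24 whose arrays did not overlap both between cycle types on day 6 and between days 6 and 2 of conception cycles. Of all features, 1.74% lay wholly lower in the first comparison and 2.39% in the second, and the share in both was not counted. In conception cycles the IL20RA levels were 0.17, 0.77, 0.86 and 1.43 on day 2, and 0.66, 0.93, -0.32 and -0.81 on day 4. On day 6 they were 0.07, -1.40, -1.10 and -0.47. Day 6 lay wholly below day 2, and day 4 spanned both. In non-mated cycles the levels were 0.94, 0.77, -0.28 and 0.81 on day 2, where the low value is the weak array, and 0.21, 0.70, 0.46 and 0.48 on day 6. Apart from the weak array, non-mated day 6 also lay wholly below day 2, as did 2.73% of all features. On non-mated day 4 the weak arrays stood at -1.27 and -1.73 and the others at 0.81 and 0.46.

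Conception day 6 averaged -0.72 ± 0.66 (SD, n = 4), against 0.81 ± 0.52 (SD, n = 4) on conception day 2 and 0.46 ± 0.20 (SD, n = 4) on non-mated day 6. The difference from day 2 was -1.53 ± 0.52 (SE), with a limma adjusted p of 0.998 and an unadjusted p of 0.00758. Without the 3 weak arrays, none of which belongs to these groups, the difference was the same and the SE 0.37, and the limma adjusted p was 0.0432. Across all alternatives the adjusted p of this difference ran from 0.0254 to 1.00 and the difference from -1.80 to -1.12. Between arrays of scan day 1 it was -1.93 and of scan day 2 -1.13, with 2 arrays a group in each.

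Against non-mated day 6 the IL20RA difference was -1.19 ± 0.52 (SE), with a limma adjusted p of 1.00 and an unadjusted p of 0.0328. It was -0.87 on the slide that held both groups, -1.37 within scan day 1 and -1.01 within scan day 2. With slide as a fixed term it was -0.56. The change from day 2 to day 6 differed between conception and non-mated cycles by -1.44 ± 0.74 (SE, limma adjusted p = 0.904). Without the weak array of non-mated day 2 that difference was -1.16. Epithelial markers moved in the same direction on these arrays: the mean level of the 5 ran from 2.34 to 2.75 on conception day 6, from 2.74 to 3.58 on conception day 2 and from 2.79 to 3.37 on non-mated day 6. The part of epithelial content in the IL20RA difference was not tested, and in tissue RNA fewer cells of a type and less RNA per cell cannot be told apart. IL20RB, the partner chain, is read by a probe named only by gene ID, and it was well above background on 1 of 24 arrays.

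IL4R, the shared receptor chain of IL4 and IL13, had higher means in conception than in non-mated cycles on each day. Its conception levels were 1.18, 1.00, 0.02 and 0.95 on day 2, 0.11, 1.79, 1.14 and 1.71 on day 4, and 0.57, 1.15, 0.55 and 0.41 on day 6. The non-mated levels were 0.00, 0.65, -0.28 and 0.10 on day 2, 0.12, -1.73, -0.16 and 0.63 on day 4, and 0.42, 0.42, -0.23 and 0.85 on day 6. Groups overlapped on every day. The difference on day 4 was 1.47 ± 0.45 (SE, limma adjusted p = 0.687, unadjusted p = 0.00383), and it was 0.95 ± 0.44 without the weak arrays. Averaged over the 3 days it was 0.82 ± 0.26 (SE, limma adjusted p = 0.522), and 0.60 ± 0.23 without the weak arrays. The day 4 difference stayed above 0 in all 39 alternatives, from 0.90 to 2.39, and the adjusted p ran from 0.346 to 1.00. Alternatives that left out an array of another group, or took scan day or replicate as a block, could not change the difference. Within scan day 1, which held no weak array of day 4, it was 1.18, and within scan day 2, whose non-mated arrays were both weak, 1.75. No slide of scan day 1 held both cycle types. The non-mated day 4 arrays of normal signal were all from that scan day. On the slides that held 1 array of each cycle type, the non-mated one weak, the day 4 difference was -0.0084 on slide 2 and 3.52 on slide 3. Of its partner chains, IL2RG was well above background on 10 arrays. IL13RA1, which the files name only by gene ID, differed on day 4 by 1.16 ± 0.52 (SE) with all arrays and by -0.05 ± 0.33 without the weak ones.

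The IL5RA-named probe on chromosome X, described in the file as IL13RA2-like, had the largest within-group SD of the 10 probes seen on all 21 arrays of normal signal. On conception day 2 it kept between -1.07 and -0.27. On conception day 4 it read 1.16, 0.37, -2.96 and -1.64, and on conception day 6 it read 1.49, -2.13, -2.86 and -1.04. The SD was 0.36 on day 2, 1.88 on day 4 and 1.90 on day 6 (n = 4 each). Non-mated day 4 ran from -2.03 to 1.26, with an SD of 1.55 (n = 4), and of 1.45 without the weak arrays (n = 2). Non-mated day 6 ran from -1.59 to 0.17. For this probe, conception day 4 minus day 2 was -1.77 within scan day 1 and 1.52 within scan day 2. Its differences in the 9 comparisons ran from -0.60 to 0.07, each smaller than its SE. Without the weak arrays its SD lay at the 96.0th percentile of all features.

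Among the chemokine receptors CXCR4, which draws leukocytes towards CXCL12, read 0.42, -0.50, 0.69 and 0.24 on conception day 2 and 0.02, 2.53, 2.28 and 1.05 on conception day 4. The arrays overlapped, and the difference of 1.26 ± 0.59 (SE) had a limma adjusted p of 1.00 and an unadjusted p of 0.0448. It was 1.20 within scan day 1 and 1.31 within scan day 2. On conception day 6 CXCR4 read -0.07, 0.99, 0.37 and 1.46, so it lay between the earlier days. CXCR7, which takes up the same ligand without classical signalling, stayed between 0.81 and 2.52 on all 12 conception arrays, with means of 1.84 ± 0.28, 2.06 ± 0.56 and 1.80 ± 0.76 (SD, n = 4) on days 2, 4 and 6.

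The ligand CCL27 and its receptor CCR10 had close means in all 3 conception groups. CCL27 averaged -1.51 ± 0.10 on conception day 2, -1.63 ± 0.33 on day 4 and -1.41 ± 0.51 on day 6 (SD, n = 4). CCR10 averaged -1.69 ± 0.24, -1.68 ± 0.86 and -1.66 ± 0.82 on the same days. CCL27 also had the smallest within-group SD of the 24 genes, 0.32 without the weak arrays.

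CXCL13, the B cell attractant, was dim and variable. It read -4.26, -6.61, -4.80 and -5.80 on conception day 2, where 1 of 4 arrays was well above background, and -2.50, -2.19, -5.63 and -3.87 on day 4, where 3 were. On conception day 6 it read -1.92, -3.60, -2.53 and -5.05, with 2 well above background. Day 6 exceeded day 2 by 2.09 ± 1.22 (SE, limma adjusted p = 0.998), and the arrays overlapped. In non-mated cycles without the weak arrays day 6 exceeded day 2 by 1.82 ± 0.89, and there the arrays did not overlap, as for 2.31% of all features on the higher side. Well above background were 1 of those 3 day 2 arrays and 3 of the 4 day 6 arrays. The day 6 value nearest to day 2, -3.97, was not.

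The IL36 system gave the pair IL1F9 (IL36G) and IL1RL2, its receptor. IL1F9 was well above background on 3 of the 4 arrays of conception day 2, a group that read -6.02, -2.06, -2.12 and -4.70, and on 0 of the 8 arrays of conception days 4 and 6. IL1F9 was tested only because of those 3 arrays, so a lower level on the other days was fixed by the filter and is given as a description, and 2 of the 4 arrays carry the day 2 mean. Against the lowest signal called well above background, that mean was at least 1.48-fold higher on conception day 2 than on day 4. Against day 6 it was at least 1.42-fold higher. Both folds take the -6.02, which was not well above background, as read. The fitted differences, which are no bound, were -1.85 ± 1.09 and -1.91 ± 1.09 (SE). IL1RL2 read -4.49, -4.65, -5.26 and -5.48 on conception day 2 and -4.25, -3.26, -3.99 and -4.23 on day 6. Those arrays did not overlap, the difference was 1.04 ± 1.19 (SE, limma adjusted p = 0.998), and 2 and 1 of them were well above background. Across the alternatives the IL1RL2 difference ran from -0.27 to 1.42.

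The IL17 receptor chains are known for epithelial and stromal defence responses. IL17RC averaged -0.97 ± 0.39 on conception day 2, -1.15 ± 0.68 on day 4 and -1.54 ± 0.84 on day 6 (SD, n = 4). IL17RE averaged -2.20 ± 0.38, -2.01 ± 0.84 and -2.03 ± 0.70. IL17RA, the common chain, was well above background on 15 arrays and differed between conception days 6 and 2 by 1.08 ± 0.86 (SE, limma adjusted p = 0.998). Across the alternatives the IL17RA difference ran from -0.19 to 1.51.

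In the comparison of cycle types on day 2, 0 of 24 genes passed, as did 0% of all features tested. At an unadjusted limma p under 0.05 there were also 0 genes and 2.5% of features. Arrays of the groups did not overlap for 0 genes on either side, beside 0.564% of features on the higher and 0.833% on the lower. Without the weak arrays the counts stayed 0 by each rule, beside 0% of features by adjusted p, 1.23% by unadjusted p, and 1.44% and 1.38% without overlap. The median difference of the 24 genes was -0.61, beside -0.15 over all features, and 5 of 24 were higher in conception cycles. Leaving out the weak arrays, the medians were 0.02 and 0.02, and 13 of 24 were higher. With normexp background correction 21 were higher, and with quantile normalization 18. CXCL13 at -1.63 ± 1.22, CCR9 at -1.27 ± 1.04, IL1RN at -1.23 ± 1.00, IL17RA at -1.18 ± 0.86 and IL5 at -0.85 ± 0.55 (SE) had the smallest p among the lower values. Without the weak arrays the same 5 ran from -0.66 to -0.12. IL4R at 0.67 ± 0.45 led the higher values, before IL20RA at 0.25 ± 0.52, CXCR7 at 0.24 ± 0.54, IL1F9 at 0.21 ± 1.09 and CCL4L1 at 0.04 ± 0.39.

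On day 4, 0 of 24 genes passed, beside 0% of all features, and 1 gene had an unadjusted limma p under 0.05, beside 6.09% of features. Arrays did not overlap for 0 genes, beside 1.12% of features on the higher and 1.29% on the lower side. The medians were -0.11 for the genes and 0.02 for all features. IL1RL2 at -1.51 ± 1.19, IL17RA at -1.08 ± 0.86 and IL2RG at -0.93 ± 0.91 (SE) were among the 5 of smallest p on the lower side. The others, IL1F9 and IL8RB (CXCR2, the neutrophil receptor), were well above background on 0 of 4 conception day 4 arrays. Their fitted differences, which are no bound, were -1.69 ± 1.09 and -1.48 ± 0.94 (SE, limma adjusted p = 0.687 and 0.687). The non-mated means behind them include the 2 weak arrays of this day, where neither gene was well above background, so no fold is given. Without those arrays the non-mated means were -5.07 for IL1F9 and -5.17 for IL8RB, beside conception means of -5.58 and -5.06. Without the 2 weak arrays of this day IL1RL2, IL8RB and IL2RG turned to 0.53, 0.11 and 0.36, and the genes' median to 0.29. CXCR4 was at 0.98 ± 0.59 with all arrays and 0.28 ± 0.56 without the weak ones, and IL20RA at 0.55 ± 0.52 and -0.52 ± 0.45. CXCR7 was at 0.44 ± 0.54 and CCL4L1 at 0.33 ± 0.39 (SE).

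The 2 non-mated day 4 arrays of normal signal shared a slide with other non-mated arrays only. Without the weak arrays, every day 4 difference between cycle types is therefore also one between slides, and these cannot be told apart. With only those 2 non-mated arrays left on day 4, IL10RA, the IL10 receptor chain of leukocytes, and IL1RN did not overlap between the groups. This held for 2 of 24 genes on the higher side, beside 7.2% of all features, and for 0 on the lower, beside 6.8%. At an unadjusted limma p under 0.05 there were 5 genes, beside 5.45% of features: CXCL13, CCL27, IL10RA, IL1RN and IL4R. IL10RA read -2.90, -3.40, -3.48 and -3.01 in conception cycles and -4.05 and -4.39 in the 2 non-mated arrays, a difference of 1.03 (limma adjusted p = 0.863). IL1RN read -4.76, -1.50, -4.54 and -4.82 against -5.90 and -6.24. Of these only the -1.50 was well above background, so the other values are set apart below the detection limit on both sides. The 5 tested macrophage and monocyte markers averaged from -2.05 to -1.56 on the conception arrays and -2.95 and -2.87 on the 2 non-mated ones. The 4 tested T and B cell markers averaged from -2.52 to -1.90 against -3.35 and -3.24. The 2 tested markers of all leukocytes lay the other way, from -1.07 to -0.59 against -0.66 and -0.31, with overlap. The 5 tested neutrophil markers averaged from -3.79 to -2.48 against -3.05 and -2.80, also with overlap. The 8 tested natural killer markers averaged from -1.57 to 0.02 against -1.40 and -1.22, and overlapped as well. The part of these cells in the IL10RA and IL1RN values was not tested.

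On day 6, which holds no weak array, 0 of 24 genes passed, beside 0.00817% of features, and 1 gene, IL20RA, had an unadjusted limma p under 0.05, beside 2.39%. The medians were -0.15 and 0.00. IL20RA was also the only one of the 24 whose arrays did not overlap, on the lower side, where 1.74% of all features did so, and on the higher side there were 0 genes, beside 2.57%. With the spread estimated without the weak arrays 0 genes passed, beside 0.0245% of features, and IL20RA remained the 1 gene at an unadjusted limma p under 0.05, beside 9.32%. CCL3, a macrophage attractant, was at -1.03 ± 0.73, CCR9, the gut homing receptor, at -1.24 ± 1.04, IL5 at -0.66 ± 0.55 and IL17RC at -0.35 ± 0.44 (SE). The neutrophil attractant CXCL1 at 0.87 ± 1.01, IL1RL2 at 0.58 ± 1.19, CCR7 at 0.35 ± 0.99 and IL4R at 0.31 ± 0.45 stood highest by p, beside IL8RB, which was well above background on 0 of 4 conception day 6 arrays and had a fitted difference of 0.37 ± 0.94, which is no bound. Averaged over the 3 days, 0 of 24 passed, beside 0.00817% of features, and IL4R alone had an unadjusted limma p under 0.05, beside 6.7%. There 4 of 24 were higher in conception cycles with all arrays and 15 without the weak ones. Without them 0 genes passed, beside 0.0163% of features, and IL4R, IL20RA and IL10RA, 3 of 24, had an unadjusted limma p under 0.05, beside 7.69%. IL5 at -0.57 ± 0.32, IL17RA at -0.69 ± 0.49, CCR10 at -0.37 ± 0.27, IL8RB, with 0 of 8 arrays well above background on conception days 4 and 6, at -0.72 ± 0.55 and CCR9 at -0.74 ± 0.60 (SE) had the smallest p on the lower side. CXCR4 at 0.19 ± 0.34, CXCR7 at 0.11 ± 0.31 and CCL4L1 at 0.06 ± 0.22 followed IL4R on the other.

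**Figure D3:**
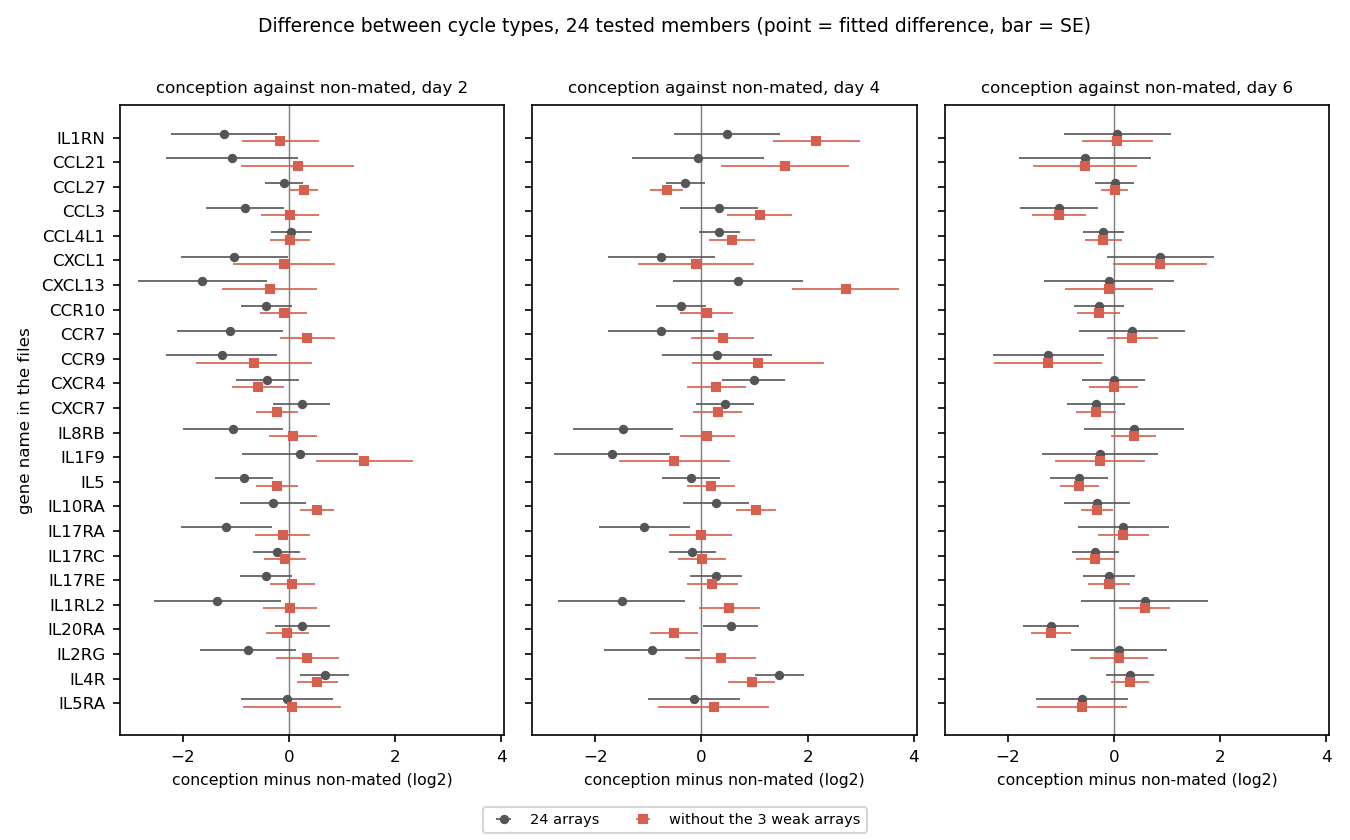
Fitted difference between conception and non-mated cycles (horizontal axis, log2, bars are SE) for the 24 tested genes (vertical axis) on days 2, 4 and 6, with all 24 arrays and without the 3 weak ones. On days 2 and 4 many dim genes shift to the right when the weak arrays are left out, whereas on day 6 the points coincide and IL20RA lies at -1.19.

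Within conception cycles, day 4 against day 2 gave 0 of 24 genes past the threshold, beside 0% of features, and 1 at an unadjusted limma p under 0.05 (CXCR4), beside 2.52%. Arrays did not overlap for 0 genes, beside 2.03% of features on the higher and 2.16% on the lower side. With the spread estimated without the weak arrays 0 genes passed, beside 0.00817%, and CXCR4, CXCL13 and IL1F9, 3 of 24, had an unadjusted limma p under 0.05, beside 8.32%. Of these, IL1F9 was well above background on 0 of 4 day 4 arrays and was tested only through day 2, so its p is no support. The medians were 0.20 and 0.00, and 15 of 24 genes were higher on day 4. With normexp background correction the medians were -0.55 and -0.26, and 4 of 24 genes were higher. CXCL13 at 1.82 ± 1.22, CCL3 at 0.55 ± 0.73, CCL4L1 at 0.42 ± 0.39 and IL4R at 0.40 ± 0.45 (SE) were the next higher values by p. Across the alternatives the CXCL13 difference ran from -0.44 to 2.66. The lower values after IL1F9 were IL20RA at -0.69 ± 0.52, IL2RG at -0.48 ± 0.91, IL5 at -0.27 ± 0.55 and IL17RC at -0.19 ± 0.44.

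Day 6 against day 4 gave 0 of 24, beside 0% of features, and 0 at an unadjusted limma p under 0.05, beside 0.629%. Arrays did not overlap for 0 genes, beside 1.66% and 0.572% of features on the higher and lower side. With the spread estimated without the weak arrays, IL20RA and IL10RA, 2 of 24, had an unadjusted limma p under 0.05, beside 5.2%. IL20RA at -0.84 ± 0.52, CXCR4 at -0.79 ± 0.59, IL10RA at -0.66 ± 0.62, CCL4L1 at -0.55 ± 0.39 and IL4R at -0.51 ± 0.45 (SE) stood lowest by p. IL17RA at 0.74 ± 0.86, IL1RL2 at 0.48 ± 1.19, IL2RG at 0.29 ± 0.91 and CCL27 at 0.22 ± 0.36 had the smallest p on the higher side beside IL8RB, which was well above background on 0 of 8 arrays of these days and gets no difference here.

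Day 6 against day 2 gave 0 of 24, beside 0.0163% of features, and 1 gene, IL20RA, at an unadjusted limma p under 0.05, beside 4.18%. Without the weak arrays IL20RA passed, 1 of 24 genes beside 1.7% of features, and 6 genes had an unadjusted limma p under 0.05, beside 15.2%. These were IL20RA, CXCL13, IL17RA, IL10RA, IL1RL2 and IL1F9, the last tested only through day 2 and well above background on 0 of 4 day 6 arrays. The medians of the genes and of all features were 0.00 and -0.02, and 12 of 24 genes were higher on day 6. With normexp background correction the medians were -0.34 and -0.17, and 4 of 24 genes were higher. The arrays of IL20RA did not overlap on the lower side and those of IL1RL2 on the higher, beside 2.39% and 5.32% of features. IL10RA was at -0.77 ± 0.62, IL17RC at -0.57 ± 0.44, IL5 at -0.55 ± 0.55, CCR7, which guides cells to lymph nodes, at 0.70 ± 0.99 and CXCR4 at 0.47 ± 0.59 (SE). Natural killer markers, 8 tested, averaged from 0.06 to 0.19 on the conception day 6 arrays and from -1.11 to -0.40 on day 2. In non-mated cycles without the weak array they averaged from -0.96 to 0.55 on day 6 and from -1.65 to -0.99 on day 2. The part of these cells in the gene values was not tested. On conception day 2 the 5 smooth muscle markers averaged 4.99 on replicate 2 and 0.37 to 0.84 on the others. The CCL21 level of that array was -2.80, against -6.17 to -5.66 on the others, and IL20RA there was within the range of its group.

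**Figure D4:**
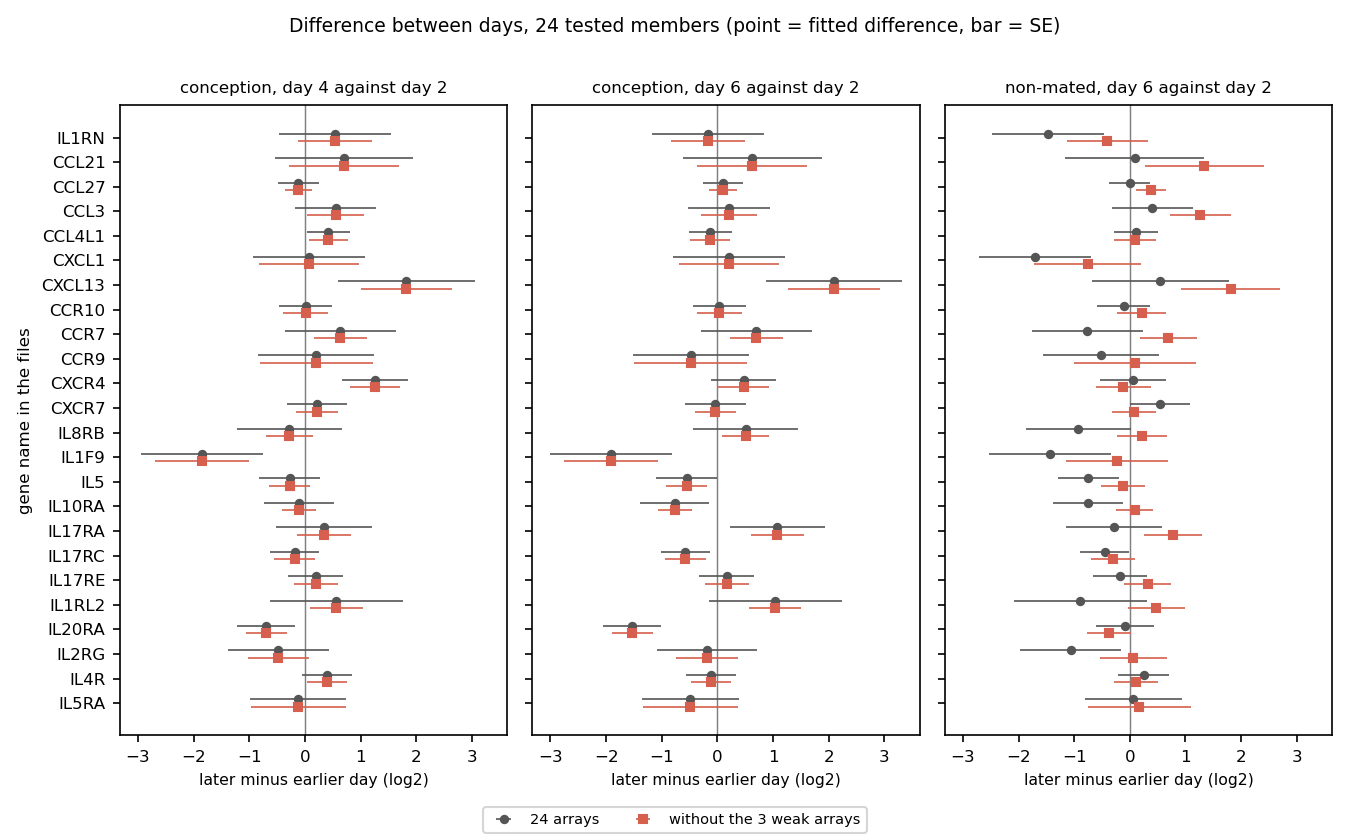
Fitted difference between days (horizontal axis, log2, bars are SE) for the 24 tested genes (vertical axis) within conception cycles, day 4 and day 6 against day 2, and within non-mated cycles, day 6 against day 2, with and without the 3 weak arrays. In conception cycles IL20RA lies at -1.53 on day 6, and only in the non-mated panel do points move when the weak arrays are left out.

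In non-mated cycles day 6 against day 2 gave 0 of 24, beside 0% of features, and 0 at an unadjusted limma p under 0.05, beside 3.24%. CXCL1 at -1.70 ± 1.01, IL1RN at -1.46 ± 1.00, IL1F9 at -1.44 ± 1.09, IL5 at -0.75 ± 0.55 and IL10RA at -0.75 ± 0.62 (SE) had the smallest p on the lower side, and without the weak array they ran from -0.75 to 0.08. CXCL13 at 0.55 ± 1.22, CXCR7 at 0.54 ± 0.54, CCL3 at 0.41 ± 0.73, IL4R at 0.25 ± 0.45 and CCL4L1 at 0.11 ± 0.39 stood highest by p. With all arrays 0 genes had no overlap, beside 1.06% of features on the higher and 1.91% on the lower side. Without the weak array CCL3 was at 1.27 ± 0.54, the 1 gene at an unadjusted limma p under 0.05, beside 1.81% of features. The arrays of CXCL13 on the higher and IL20RA on the lower side then no longer overlapped, beside 2.31% and 2.73% of features.

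The change from day 2 to day 6 was compared between the cycle types by an interaction term, which 0 of 24 genes passed, beside 0% of features, and 0 at an unadjusted limma p under 0.05, beside 2.1%. When the weak arrays were left out 1 gene, IL20RA, had an unadjusted limma p under 0.05, beside 4.29%. Beside IL20RA, the largest values by p were IL1RL2 at 1.93 ± 1.69, CXCL1 at 1.91 ± 1.43, CCR7 at 1.46 ± 1.41, IL8RB, dim on conception day 6 as above, at 1.44 ± 1.34 and IL17RA at 1.36 ± 1.21 (SE). Without the weak array they ran from 0.01 to 0.96. The lower values after IL20RA were CXCR7 at -0.57 ± 0.77, the IL5RA-named probe at -0.55 ± 1.23, IL4R at -0.36 ± 0.64 and CCL4L1 at -0.24 ± 0.55.

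Genes that carry the signals of these receptors were counted by list. Of 8 tested genes of the JAK, STAT and SOCS list, 14 of the IL1 and NF-kB list, 11 of the atypical chemokine receptors and signal partners and 10 of the other cytokines and receptors, 0 passed the limma threshold in any of the 9 comparisons, with or without the weak arrays. On conception day 6 against day 2, 4, 9, 6 and 3 of them had higher means, beside 48.2% of all features, with list medians of 0.08, 0.11, 0.07 and -0.50 beside -0.02 over all features. At an unadjusted limma p under 0.05 the counts were 2, 0, 1 and 0, beside 4.18% of all features.

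Another 19 genes of the same families are on the array under a gene ID, synonym or transcript and so fall outside the rule, and 6 of them were tested, 0 passing in any comparison, beside 0% to 0.0163% of all features. CXCL14, an endometrial attractant of natural killer cells, was at -2.01 ± 1.02 (SE) in conception against non-mated cycles on day 6 (limma adjusted p = 1.00). CXCL16 was at 0.45 ± 0.75 in the same comparison. CXCL17, a mucosal chemokine, was at -2.28 ± 0.86 on day 2 and 1.39 ± 0.86 on day 6, and its interaction term of 3.67 ± 1.22 had a limma adjusted p of 0.904. Without the weak arrays the day 2 value was -1.66 ± 0.86 and the interaction 3.05 ± 1.18. CXCL17 and IL20RB were picked after their values were seen. CCL2, the monocyte attractant, was well above background on 2 arrays and not tested. IL8 (CXCL8), CXCL12, CCL5, IL10 and IL1A were among the genes of interest that the rule did not find by name.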

How the data were processed

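The deposited scanner files hold fluorescence intensity per spot on a linear scale, background-corrected by Agilent Feature Extraction, version 9.5.3.1 per the file headers and 10.7.3.1 per the submitters' processing notes. The authors also deposited a log2 value table, used as an alternative: differences between its columns correlated with those of the scanner values at 0.982 to 0.999, its column medians ran from -0.41 to 2.87, and its centring stays unknown. RNA was extracted with Trizol and labelled with Cy3, per the labels' protocols.

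Control spots and spots flagged as outliers were left out and the 2 spots of each of 20217 probes averaged. A level is log2 of the intensity minus the array's 75th percentile. Tested features had a probe flagged as well above background (a deposited yes or no flag, per the file headers) on 3 or 4 arrays in 1 group or more. Group means were fitted with limma 3.58.1 in R 4.3.3 (lmFit, eBayes, 18 residual degrees of freedom), p-values Benjamini-Hochberg adjusted over 12240 features, threshold 0.05. The fit was tested on simulated data. No array pair was identical (highest correlation 0.975). The number of arrays limits the precision, 4 a group. Gene names follow the files, and RefSeq names (T2T-MMU8v2.0) were used for the other lists, where 8372 probes stayed unnamed. Named per comparison are the 5 genes of smallest p in each direction, those whose arrays do not overlap, and a list of immune genes of interest. Members and lists were chosen with earlier results of these data known.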

Additional observations from a re-analysis of the deposited data

Results flagged for a closer look

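In the 144 groups of 4 arrays (24 genes in 6 groups), 12 had an array far from the other 3, by Dixon's test at 95%, which chance gives in about 1 of 20 groups. Weak arrays accounted for 7. On non-mated day 2 replicate 3, CCL3, IL10RA, IL20RA and IL2RG stood at -0.2839, CXCL13 at 0.05925 and CCR7 at 0.5554, none of them well above background. CXCR4 stood at -1.647 on non-mated day 4 replicate 2, against 1.179 to 1.217 on the others.

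On arrays of normal signal, CCL21, the lymphatic attractant of T cells, stood at -2.796 on conception day 2 replicate 2, the array with the highest smooth muscle markers. IL1RN stood at -1.502 on conception day 4 replicate 2, against -4.542 for the next. IL1F9 stood at -3.797 on non-mated day 6 replicate 3 and IL10RA at -3.152 on non-mated day 6 replicate 4. CCL27 stood at -1.665 on conception day 2 replicate 3, 0.18 below the next in a group of SD 0.10.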

How the results depend on the processing

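The count of genes past the threshold was 0 in all 9 comparisons and stayed 0 under 13 of 15 alternatives and with each array left out in turn (0 to 0). The exceptions were conception day 6 against day 2 without the 3 weak arrays, with 1 gene, and with array weights, also 1, IL20RA in both. With the replicate number as a block the count was 0 in all 9: same-numbered arrays of the cycle types deviated together at over 0.1 in 2 of 12 pairs, so the numbers were not taken to pair the arrays. Of 89 named differences under all alternatives, 3426 values in all, 103 changed sign and 2 became significant. Many of these values could not change sign. Leaving out an array of another group, or fitting scan day or replicate as a block, leaves a difference of 2 groups as it was. The 103 of 3426 is therefore no measure of stability. Other scalings moved the median of all features on day 2 from -0.15 to 0.15 (normexp) or 0.49 (quantile normalization), and without a filter to -0.72. Dim genes are limited by signal over background, and levels on the weak arrays are mostly bounds. "Only the groups compared" gives no separate fit for the mean of 3 days.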
